A study of Mus musculus with 24 samples.

Results

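The 7 genes described here were listed as tectorial membrane genes that do not encode collagens: *Tecta*, *Tectb*, *Otog*, *Otogl*, *Otoa*, *Ceacam16* and *Epyc*. They were chosen by name, as the rows of the count table whose Entrez identifiers carry these mouse symbols, and all 7 were found among the 24454 identifiers of the table. RNA came from organs of Corti (OCs, the auditory sensory epithelia with adjoining tissue) of 5-day-old C57BL/6N pups of both sexes, which were kept for 24 h in serum-containing medium with penicillin before treatment. Treatment lasted 6 or 24 h. Controls (CTRL) received no drug, the GM explants 50 μM of gentamicin, an ototoxic aminoglycoside, the PIO explants 10 μM of pioglitazone, which activates the nuclear receptor PPAR-γ, and the PIO+GM explants both at these doses. There were 3 libraries in every one of the 8 groups, 24 altogether, and RNA of 6 OCs was pooled for a library.

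The tectorial membrane is the acellular gel that overlies the sensory epithelium and couples sound-evoked motion to the hair bundles. Its collagen fibrils lie in a striated sheet built from α-tectorin and β-tectorin, and the proteins are secreted during development by cells of the greater epithelial ridge, by supporting cells and by interdental cells of the spiral limbus. Mutations in several of these genes cause hereditary hearing loss. Hair cells, the target of gentamicin, are not regarded as the main source of these proteins.

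Promoter windows are shown for *Tectb*, *Epyc* and *Tecta*, the 3 most abundant genes, because *Tectb* and *Epyc* varied together at both times and *Tecta* did not follow them at 24 h. Each window runs from 250 bases before to 50 bases after the RefSeq start site (build GRCm38.p6) and is written 5′ to 3′ on the strand of the gene. Capitals mark matches on either strand to ACAATG, a form of the letters recognised by SOX factors. Other forms were not searched, so a window without a match may hold them. A match lies on the opposite strand where it reads as the reverse complement. *Tectb* is at chr19:55180476-55180775 (plus strand), *Epyc* at chr10:97643818-97644117 (plus strand) and *Tecta* at chr9:42401641-42401940 (minus strand).
Tectb: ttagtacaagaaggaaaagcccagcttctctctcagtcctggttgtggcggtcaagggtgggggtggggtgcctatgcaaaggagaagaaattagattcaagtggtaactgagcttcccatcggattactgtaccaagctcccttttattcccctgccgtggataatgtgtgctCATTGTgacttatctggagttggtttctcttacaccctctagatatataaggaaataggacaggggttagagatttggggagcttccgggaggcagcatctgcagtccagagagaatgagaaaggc
Epyc: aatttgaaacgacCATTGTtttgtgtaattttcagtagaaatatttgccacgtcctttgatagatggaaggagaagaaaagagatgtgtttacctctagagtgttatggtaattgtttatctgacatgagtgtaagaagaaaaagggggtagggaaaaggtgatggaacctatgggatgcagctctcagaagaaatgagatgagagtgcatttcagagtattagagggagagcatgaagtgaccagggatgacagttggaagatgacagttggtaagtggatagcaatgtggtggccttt
Tecta: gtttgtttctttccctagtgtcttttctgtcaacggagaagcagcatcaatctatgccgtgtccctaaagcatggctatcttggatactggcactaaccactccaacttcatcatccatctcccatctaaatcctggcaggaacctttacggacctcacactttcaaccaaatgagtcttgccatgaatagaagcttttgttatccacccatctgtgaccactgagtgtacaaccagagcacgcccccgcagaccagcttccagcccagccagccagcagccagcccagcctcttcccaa
The *Tectb* and *Epyc* windows each held 1 match to ACAATG and the *Tecta* window held none. The windows of the other starts held 2 matches for *Epyc* and 0 for *Tecta*, and those of *Otoa* and *Otog* held 0. Of the 32851 promoter windows of this length, 12.6% hold a match, so the letters are common. None of the 7 windows listed for *Tecta*, *Tectb*, *Otog*, *Otoa* and *Epyc*, which include another start for *Tecta* and for *Epyc*, held TATAAA (13.6% of all windows), the nuclear receptor core motif AGGTCA (16.3%) or the direct repeat of that motif, AGGTCANAGGTCA, to which PPAR dimers bind (0.0396%), on either strand. A match or its absence describes these windows and says nothing about binding.

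Library totals ran from 7211357 to 15548856 counts, with a median of 12538495, and 3 counts corresponded to between 0.193 and 0.416 CPM (normalised read count, a gene's share of its library's counts after scaling with edgeR's TMM factors). Replicate libraries differed by far more than sampling noise (chi-square per degree of freedom 10.2 to 77.8 over pairs of a group), so none was one library deposited again. Whether any share an RNA sample was not tested. Markers of supporting cells (14 of 14 genes tested), hair cells (15 of 15) and epithelium (8 of 8) were present in all groups, and so were markers of mesenchyme, cartilage, Schwann cells, neurons, stria vascularis and macrophages, with no marker averaging 3 counts or fewer a library. These are bulk samples, in which fewer cells of a type and less RNA per cell cannot be told apart.

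The 7 genes together took between 0.462% and 1.26% of all counts, with a median of 1.00%. *Tectb*, encoding β-tectorin, a zona pellucida-domain protein of the striated sheet, had a median of 1683 RPKM (CPM divided by the deposited gene length in kilobases) and ranked at place 7 of all genes by this measure. *Epyc*, encoding epiphycan, a small leucine-rich proteoglycan, followed with a median of 925 RPKM at place 15. *Tecta*, encoding α-tectorin, the larger zona pellucida-domain protein of the same sheet, had a median of 245 RPKM at place 101. *Otoa*, whose product otoancorin attaches the membrane to the spiral limbus, had a median of 97.9 RPKM. *Otogl* and *Otog*, encoding the mucin-like glycoproteins otogelin-like and otogelin, had medians of 59.3 and 45.4 RPKM.

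The order was nearly the same in every library. *Tectb* exceeded *Epyc* in 23 of 24 libraries, and *Epyc* exceeded *Tecta*, *Tecta* exceeded *Otoa* and *Otoa* exceeded *Otogl* in 24 of 24 libraries. *Otogl* exceeded *Otog* in 18 of 24 libraries, with a ratio of RPKM between 0.691 and 2.67, so the order of these neighbours was not fixed beyond their spread. *Ceacam16*, encoding a secreted adhesion protein that associates with the tectorins, was at the limit of detection. It received 42 counts in all, between 0 and 7 in a library with a median of 1, and 17 of 24 libraries had any. It did not pass the filter on low counts and was tested in no comparison.

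**Figure D1:**
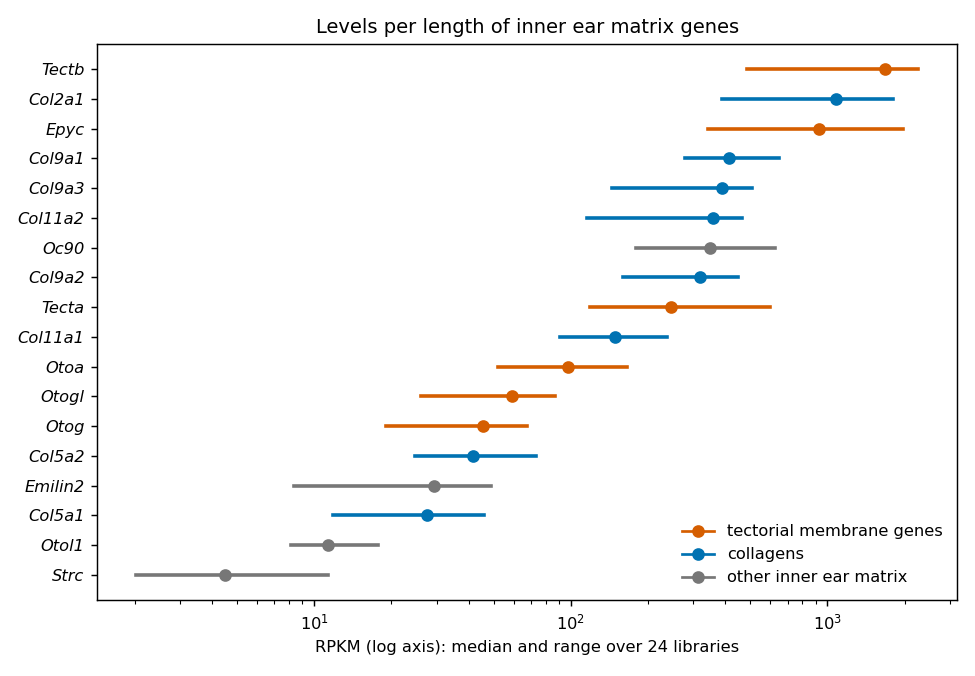
Level per length (RPKM, log axis) of 6 tectorial membrane genes, 8 collagens of the membrane and 4 other inner ear matrix genes, with a point at the median and a line over the range of the 24 libraries. *Tectb* and *Epyc* lie near *Col2a1* at the top, and *Otoa*, *Otogl* and *Otog* lie below most of the collagens; *Ceacam16* is left out because it was near 0.

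The collagens that form the fibrils of the membrane are also made by cartilage and other connective tissue. *Col2a1*, the chain of type II collagen, had a median of 1079 RPKM and lay between *Tectb* and *Epyc*. *Col9a1*, *Col9a3*, *Col11a2* and *Col9a2* lay between 320 and 415 RPKM, above *Tecta*, and *Col11a1* at 149 RPKM lay below it. *Col5a2* and *Col5a1*, chains of type V collagen, had medians of 41.6 and 27.5 RPKM.

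The genes lie on 4 chromosomes, and positions are those of RefSeq on GRCm38.p6. *Tecta* (Entrez 21683) spans positions 42329622 to 42401690 of chromosome 9 and *Tectb* (21684) positions 55180726 to 55196313 of chromosome 19. *Otog* (18419), *Otoa* (246190) and *Ceacam16* (330483) lie apart from each other on chromosome 7, starting at 46240987, 121083424 and 19852097. *Otogl* (628870) and *Epyc* (13516) lie on chromosome 10, starting at 107760530 and 97644068. Genes annotated on the opposite strand overlap *Tecta*, *Ceacam16* and *Epyc*, and a microRNA gene lies within *Tectb*. Whether strand was used in counting is not stated, so reads of such neighbours could be included.

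The spread of these genes between replicate libraries was large. The pooled within-group SD of log2 CPM (prior count 2) was 0.87 for *Tectb*, 0.77 for *Epyc*, 0.62 for *Otogl*, 0.57 for *Tecta*, 0.52 for *Otoa* and 0.45 for *Otog*, beside a median of 0.19 over the 2429 tested genes with a median of at least 100 CPM. The SD of *Tectb* was larger than that of 99.5% of those genes, and that of *Otog*, the steadiest of the 6, larger than that of 93.9%. *Tectb* differed 4.67-fold between its highest and lowest library, *Epyc* 5.74-fold and *Tecta* 5.06-fold.

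*Tectb* showed how the spread was arranged. At 6 h it had 3995, 2103 and 4562 CPM in CTRL, 4173, 3432 and 2116 in GM, 4949, 5421 and 2623 in PIO, and 2318, 5614 and 5392 in PIO+GM (replicates 1 to 3). At 24 h it had 5825, 2258 and 5432 CPM in CTRL, 5552, 1566 and 5808 in GM, 6109, 1320 and 4609 in PIO, and 5729, 1371 and 6166 in PIO+GM. In every group 1 library lay well below the other 2, and at 24 h it was the library numbered 2 in all 4 treatments.

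The same libraries carried high levels of stria vascularis markers. In each group, the library with the highest summed CPM of the 6 stria vascularis markers was also the one with the lowest sum of the tectorial membrane genes (8 of 8 groups). These 8 libraries were CTRL 2, GM 3, PIO 3 and PIO+GM 1 at 6 h and the 4 libraries numbered 2 at 24 h. Their stria vascularis sums ran from 175 to 331 CPM, and those of the other 16 libraries from 56.3 to 129 CPM. The sum of the 7 tectorial membrane genes ran from 4632 to 7815 CPM in the 8 libraries and from 7487 to 12735 CPM in the 16, with an overlap at 1 library of each set.

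Within these 8 libraries, 5 of the 6 stria vascularis markers were at their highest of the group in all 8 groups. The melanocyte gene *Dct*, expressed by intermediate cells of the stria, was between 59.6 and 160 CPM in them and between 1.23 and 18.1 CPM in the other 16. *Kcne1*, a potassium channel subunit of marginal cells, was between 9.66 and 25.8 CPM against 0.253 to 3.69 CPM. *Kcnj10*, which supporting and glial cells also express, was the exception: it was highest in 1 of 8 groups and lowest in 6 of 8 (29.0 to 67.0 CPM against 41.7 to 117 CPM).

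*Tectb* was the gene that followed this split most closely, with 1320 to 2623 CPM in the 8 libraries and 3432 to 6166 CPM in the other 16, so the ranges did not overlap. *Otoa* and *Otogl* were also lowest in these libraries in 8 of 8 groups, and *Epyc* in 7 of 8. *Otog* was lowest there in 4 of 8 groups and *Tecta* in 5 of 8, while *Tecta* was highest there in 2 (CTRL and GM at 24 h). The 8 libraries were identified after the values had been seen and are not groups of the study, so no test was made between them.

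Other marker lists moved with the same libraries in part. The summed hair cell markers were lowest there in 8 of 8 groups (599 to 972 CPM against 846 to 1276 CPM in the other 16) and the macrophage markers highest in 8 of 8 (66.6 to 177 CPM against 43.6 to 96.7 CPM). The supporting cell markers were lowest there in 6 of 8 groups and highest in 2, with overlapping ranges of 1370 to 1929 CPM and 1424 to 2268 CPM. The sum of the 8 collagens was highest there in 6 of 8 groups and lowest in 1, with 9978 to 18875 CPM against 6107 to 16098 CPM. Mesenchyme and fibrocyte markers and neuron markers were each highest there in 6 of 8 groups, and the summed relatives of the members in 7 of 8, whereas the genes of other acellular structures of the inner ear were lowest in 7 of 8. Cartilage and bone markers were highest in 5 of 8 groups and lowest in 3, and epithelial markers were lowest in 5 and highest in 2. The small leucine-rich proteoglycans were lowest in 6 of 8 and highest in 2, and Schwann cell markers were highest in 3 and lowest in 3. The part of cell composition in the levels of the tectorial membrane genes was not tested.

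**Figure D2:**
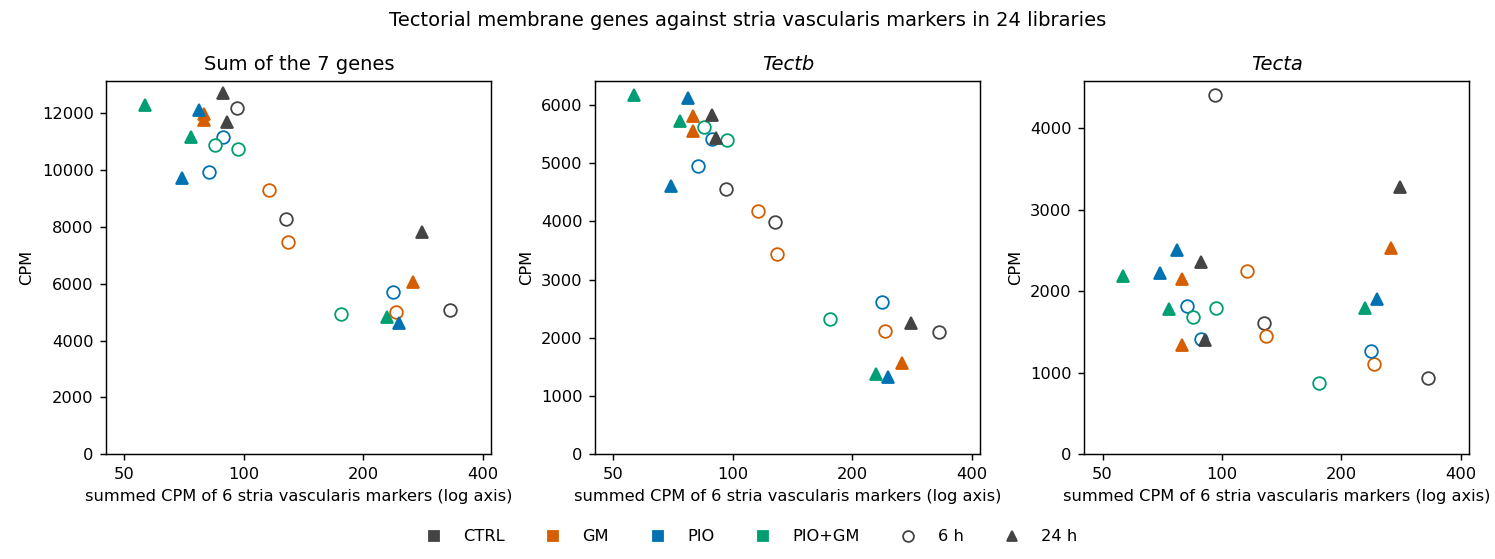
Summed CPM of the 7 tectorial membrane genes, and CPM of *Tectb* and *Tecta*, against the summed CPM of 6 stria vascularis markers (log axis) in 24 libraries, coloured by treatment, with open circles for 6 h and triangles for 24 h. The 8 libraries at 175 CPM or more of stria vascularis markers had 1320 to 2623 CPM of *Tectb*, below the 3432 to 6166 CPM of the other 16, and *Tecta* showed no such separation.

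*Tecta* and *Tectb* thus diverged at 24 h. The ratio of their RPKM (*Tectb* over *Tecta*) was between 1.67 and 2.05 in the 4 libraries numbered 2 at 24 h and between 5.59 and 11.7 in the other 8 of that time. At 6 h it ran from 2.79 to 10.4 over 12 libraries. The ratio of *Otoa* to *Tecta* was between 0.210 and 0.220 in the same 4 libraries and between 0.369 and 0.677 in the other 8, and that of *Epyc* to *Tecta* between 1.32 and 2.02 against 2.98 to 10.8.

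The 24 libraries differ in group, depth and cell type marker levels, and the part of these in the correlations was not tested. Across them the log2 CPM of *Tectb* and *Epyc* had a Pearson correlation of 0.90, *Otoa* and *Otogl* of 0.86, and *Tectb* and *Otoa* of 0.85. *Tecta* and *Otog* had 0.75, whereas *Tecta* and *Tectb* had 0.19 and *Tecta* and *Epyc* −0.01. The value for *Tecta* and *Tectb* was 0.66 over the 12 libraries of 6 h and −0.21 over the 12 of 24 h, and for *Tecta* and *Epyc* it was 0.28 and −0.39. For *Tecta* and *Otoa* the value was 0.94 over the 12 libraries of 6 h and −0.03 over the 12 of 24 h.

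Among genes with levels like those of each member over the 24 libraries, by Pearson correlation of log2 CPM, *Tmod1*, an actin-capping protein, stood nearest to *Tectb* (0.98). *Twf1*, another actin-binding protein, stood nearest to *Epyc* (0.96), and *Eya4*, a transcriptional coactivator whose mutations cause hearing loss, nearest to *Otogl* (0.96). *Epha1* was nearest to *Otoa* (0.92), *Nkd1* to *Otog* (0.92) and *Cdh4* to *Tecta* (0.90). The gene most like the mean of the 6 was *Spock1*, an extracellular matrix proteoglycan (0.94).

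The first question of the design was whether gentamicin alters expression. None of the 6 tested members passed the threshold (adjusted p under 0.05, edgeR) at 6 h, where 0% of all 16317 genes did, or at 24 h, where 0.0123% did. At both times 0 members had an unadjusted p under 0.05 and DESeq2, which called 0% and 0.0919% of all genes, called 0. All 6 estimates lay below 0 at each time, with medians of −0.20 and −0.11 on the log2 scale beside 0.00 over all genes at both times, but every interval included 0. Leaving out 1 library turned the sign of 6 of 6 estimates at 6 h and of 5 of 6 at 24 h. Supporting cell markers had estimates below 0 for 10 of 14 genes at 6 h (median −0.20) and 12 of 14 at 24 h (median −0.35), and hair cell markers for 8 of 15 (median −0.04) and 11 of 15 (median −0.43), and their part in the members' values was not tested.

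*Tecta* had the lowest estimate after gentamicin. At 6 h it had 1609, 939 and 4399 CPM in CTRL and 2242, 1444 and 1109 CPM in GM, and 1 control library lay above all others of the series. The log2 fold change was −0.54 ± 0.43 (SE), with a 95% interval from −1.42 to 0.35. Without that control library the estimate was 0.33, so its direction rested on 1 library. At 24 h *Tecta* had 2361, 3278 and 1406 CPM in CTRL and 2149, 2528 and 1334 CPM in GM, groups that overlapped, and the log2 fold change was −0.23 ± 0.42.

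For the other members the gentamicin estimates were closer to 0. At 6 h the log2 fold changes were −0.26 ± 0.33 for *Otog*, −0.24 ± 0.44 for *Otogl*, −0.17 ± 0.38 for *Otoa*, −0.13 ± 0.59 for *Tectb* and −0.04 ± 0.54 for *Epyc*. At 24 h they lay between −0.19 (*Otog*) and −0.06 (*Tectb*). The intervals of the 6 genes reached from −1.42 to 1.11 at 6 h and from −1.31 to 1.18 at 24 h, so those of *Tectb* and *Epyc* held a log2 change of 1 in either direction.

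**Figure D3:**
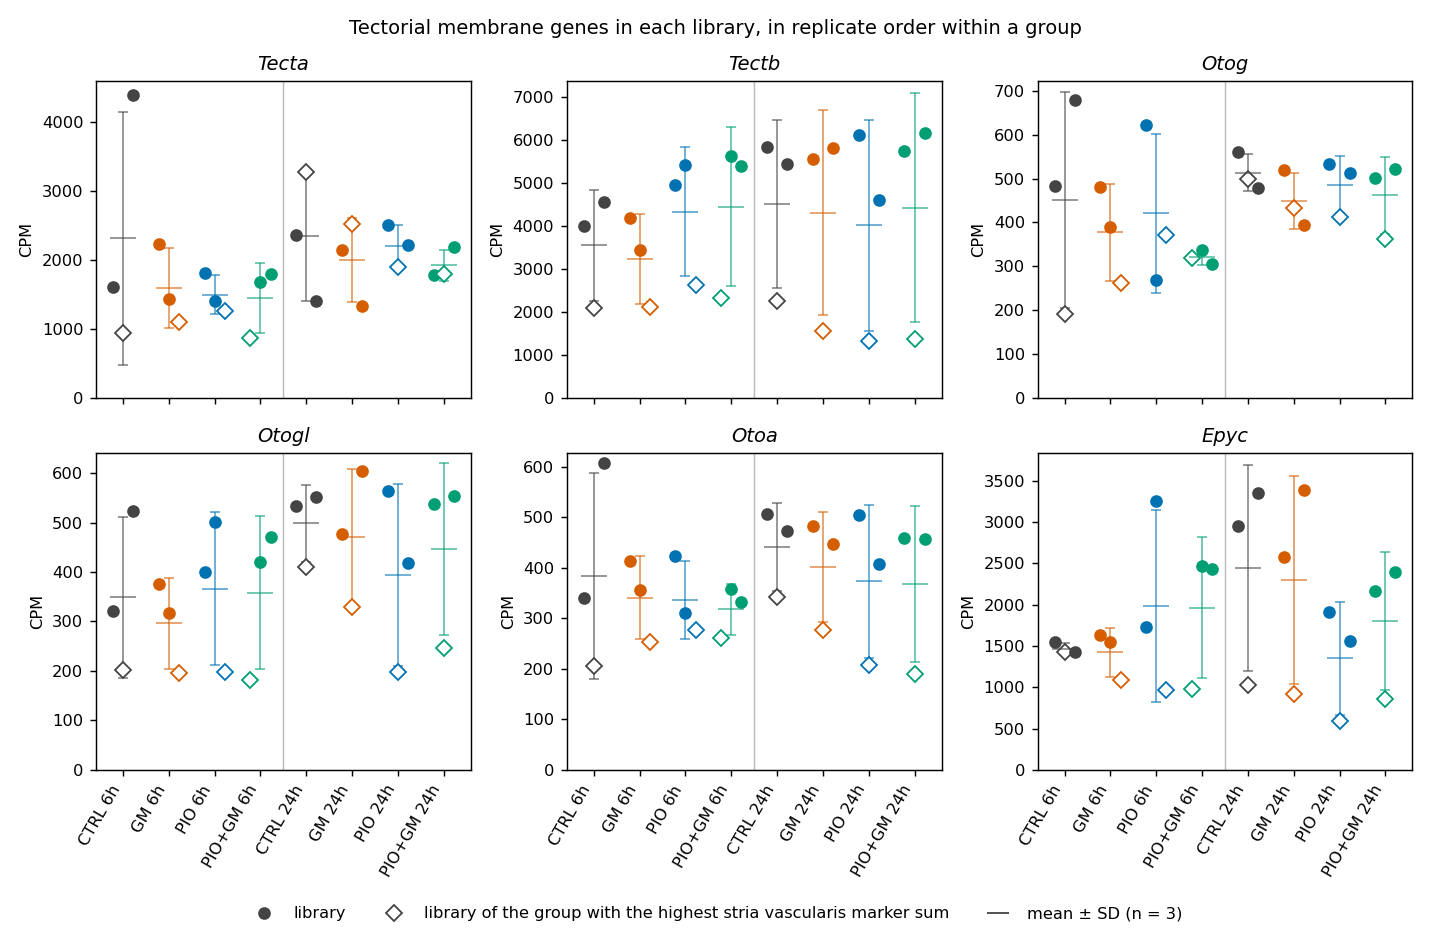
CPM of 6 tectorial membrane genes in each of the 24 libraries by group (3 libraries a group, in replicate order), with the mean and SD of each group; open diamonds mark the library with the highest stria vascularis marker sum of its group. Groups overlapped in every comparison of drugs, and the diamonds were the lowest points of their group for *Tectb*, *Otoa* and *Otogl* in 8 of 8 groups.

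Pioglitazone alone was compared with control. None of the 6 members passed at 6 h (0.337% of all genes did) or at 24 h (0.153%); 0 had an unadjusted p under 0.05 at either time, and DESeq2 called 0, beside 2.09% and 0.993% of all genes. At 6 h 3 estimates lay above 0 and 3 below, and at 24 h all 6 lay below 0 with a median of −0.20 beside −0.01 over all genes. Leaving out 1 library turned the sign of 4 of these 6 (*Tecta*, *Tectb*, *Otoa* and *Otog*), and *Tecta* had 0.33 without the 4 libraries numbered 2 at 24 h. In this comparison at 24 h, estimates were also below 0 for 12 of 14 supporting cell markers (median −0.28), 13 of 15 hair cell markers (median −0.31), 7 of 8 epithelial markers (median −0.29) and 8 of 9 tested small leucine-rich proteoglycans, the family of *Epyc* (median −0.90). They were below 0 for 7 of 10 cartilage and bone markers (median −0.74), 7 of 10 mesenchyme and fibrocyte markers (median −0.45) and 4 of 8 macrophage markers (median 0.01). The part of these cell types in the members' values was not tested.

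*Epyc* had the estimates farthest from 0 after pioglitazone in the 24 h explants. It had 2948, 1027 and 3352 CPM in CTRL, 1905, 591 and 1554 CPM in PIO, 2580, 921 and 3393 CPM in GM, and 2162, 852 and 2396 CPM in PIO+GM. Within each group the library numbered 2 was the lowest, and among those 4 libraries PIO was also the lowest. The log2 fold change for PIO against CTRL was −0.86 ± 0.54 (95% interval −1.99 to 0.28; adjusted p = 0.647), and without the 4 libraries numbered 2 it was −0.86 ± 0.44 (adjusted p = 0.657). Over 18 alternatives its adjusted p by edgeR or DESeq2 ran from 0.0562 to 0.970.

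At 6 h the order was different for *Epyc*. CTRL had 1546, 1424 and 1423 CPM, GM 1633, 1548 and 1086, PIO 1728, 3252 and 971, and PIO+GM 982, 2472 and 2436. The controls lay close together, whereas the libraries with pioglitazone lay on both sides of them, and the log2 fold change for PIO was 0.44 ± 0.54. The difference of the pioglitazone effect between 24 h and 6 h was −1.29 ± 0.77 for *Epyc* (95% interval −2.90 to 0.31), the largest of the 24 differences of effects tested over the members, with an unadjusted p of 0.108 and an adjusted p of 0.898 by edgeR (0.498 to 1.00 over 22 alternatives). In that test of a difference, 0% of all genes passed by edgeR and 0.00613% by DESeq2, 0 members had an unadjusted p under 0.05 and DESeq2 called 0 members.

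*Tecta* had the lowest 6 h estimate with pioglitazone, a log2 fold change of −0.63 ± 0.43. PIO had 1814, 1410 and 1271 CPM, beside the controls with 1 high library given above, and leaving that library out gave 0.23. *Tectb* had 0.29 ± 0.59, *Otogl* 0.07 ± 0.44, *Otog* −0.10 ± 0.33 and *Otoa* −0.19 ± 0.38. At 24 h *Otogl* had −0.34 ± 0.44, *Otoa* −0.24 ± 0.38, *Tectb* −0.17 ± 0.59, *Tecta* −0.09 ± 0.42 and *Otog* −0.08 ± 0.33.

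Pioglitazone in the presence of gentamicin was compared with gentamicin alone, a comparison that shares its GM libraries with that of GM and CTRL. None of the 6 members passed at 6 h (1.32% of all genes did) or at 24 h (0.11%); 0 had an unadjusted p under 0.05, and DESeq2 called 0, beside 7.45% and 0.625% of all genes. The 6 h log2 fold changes were 0.47 ± 0.54 for *Epyc*, 0.45 ± 0.60 for *Tectb*, 0.27 ± 0.44 for *Otogl*, −0.10 ± 0.38 for *Otoa*, −0.14 ± 0.42 for *Tecta* and −0.23 ± 0.33 for *Otog*. The transcripts of *Epyc* and *Otogl* have the lowest GC contents of the 6 (37.2% and 42.7%) and those of *Otog* and *Otoa* the highest (57.1% and 53.8%), and after removal of each library's trend with GC content the estimates of *Epyc*, *Otogl*, *Otoa* and *Otog* changed sign. At 24 h the estimates lay between −0.35 ± 0.54 (*Epyc*) and 0.04 ± 0.33 (*Otog*).

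*Otog* varied least in PIO+GM at 6 h, with 319, 338 and 305 CPM, beside 480, 390 and 262 CPM in GM, 622, 270 and 372 CPM in PIO and 483, 192 and 679 CPM in CTRL. At 24 h it had 560, 500 and 479 CPM in CTRL, 520, 433 and 395 in GM, 534, 412 and 512 in PIO, and 502, 362 and 522 in PIO+GM. The groups overlapped at each time. Over the drug comparisons the 2 groups overlapped for each of the 6 members, whereas those of 5.23% and 5.66% of all genes at 6 and 24 h did not for GM against CTRL, 15.4% and 22.3% for PIO against CTRL and 23% and 18.4% for PIO+GM against GM. For PIO+GM these shares were 17.9% and 21% against CTRL and 3.38% and 8.81% against PIO. Against CTRL and against PIO, PIO+GM gave 0 calls by edgeR and 0 by DESeq2 among the members at either time, with 0 unadjusted p under 0.05, where 2.64% and 0.478% of all genes passed against CTRL at 6 and 24 h and 0% and 0.0735% against PIO. DESeq2 called 7.27% and 1.61% of all genes against CTRL and 0.00613% and 0.215% against PIO. Over all 60 tests of drugs, log2 fold changes ran from −0.86 to 0.47 with SE between 0.33 and 0.60, and the lowest unadjusted p was 0.129.

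**Figure D4:**
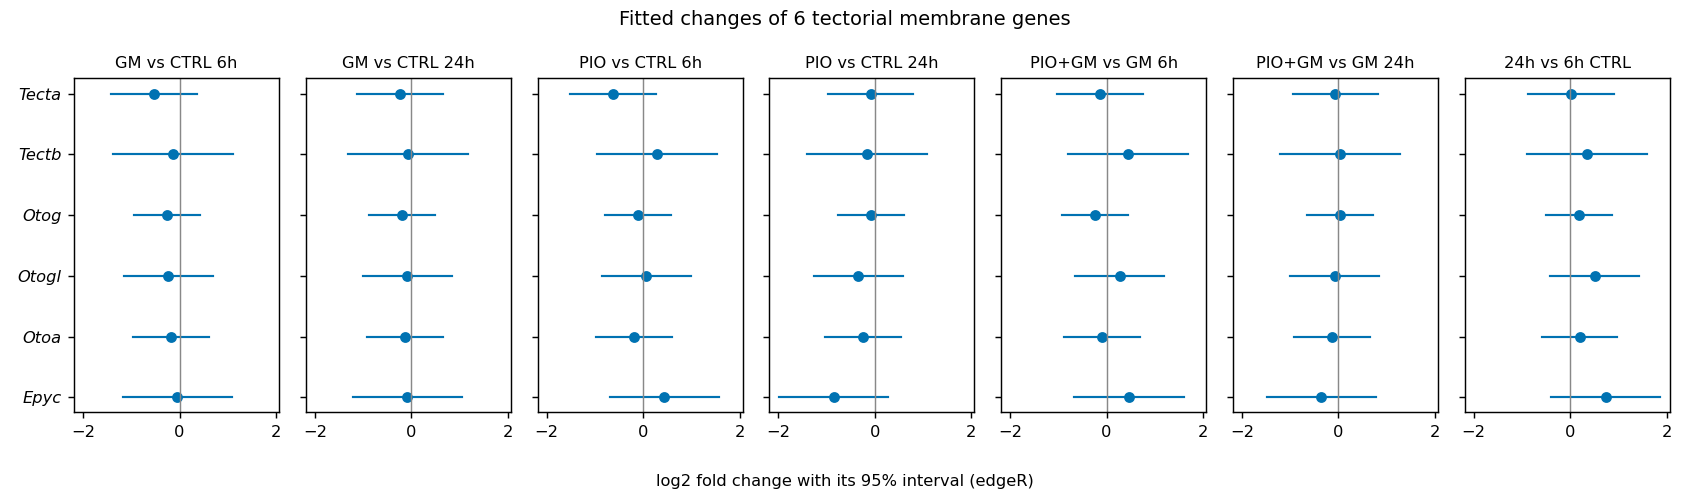
Fitted log2 fold changes of 6 tectorial membrane genes (points) with 95% intervals (lines) from the edgeR model of 24 libraries, for GM against CTRL, PIO against CTRL, PIO+GM against GM and 24 h against 6 h in CTRL. All of the intervals shown include 0, from −1.99 at the low end (*Epyc*, PIO against CTRL at 24 h) to 1.87 at the high end (*Epyc*, 24 h against 6 h).

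Culture time gave the most calls over all genes. Between 24 h and 6 h, 28% of all genes passed in CTRL, 24.2% in GM, 29% in PIO and 34.6% in PIO+GM by edgeR, whereas none of the 6 members passed in any of these, 0 had an unadjusted p under 0.05 and DESeq2 called 0. DESeq2 called 30.7%, 28.2%, 32.9% and 37.9% of all genes in these groups. The SE of the members' estimates were 0.33 to 0.60, so the intervals were wide. In CTRL all 6 estimates lay above 0, with 0.74 ± 0.54 for *Epyc*, 0.51 ± 0.44 for *Otogl*, 0.34 ± 0.60 for *Tectb*, 0.20 ± 0.38 for *Otoa*, 0.18 ± 0.33 for *Otog* and 0.02 ± 0.42 for *Tecta*, beside a median of 0.03 over all genes. Leaving out 1 library turned the sign for 3 of the 6 (*Tecta*, *Otoa* and *Otog*). Over the same time in CTRL, 11 of 14 supporting cell markers (median 0.44, 4 called higher and 1 lower) and 12 of 15 hair cell markers (median 0.25) had estimates above 0, beside a median of 0.27 for the members. Other lists went the other way, with estimates below 0 for 7 of 8 epithelial markers (median −0.50, 3 called lower) and 6 of 6 Schwann cell markers (median −1.04). The part of these cell types in the members' values was not tested. In GM all 6 estimates also lay above 0 (0.24 to 0.69). In PIO 4 lay above 0 and 2 below, with −0.56 ± 0.54 for *Epyc* and −0.11 ± 0.59 for *Tectb*, and in PIO+GM the same count held, with −0.12 ± 0.54 for *Epyc* and −0.01 ± 0.59 for *Tectb*. Leaving out 1 library turned the sign of 5 of 6 estimates in PIO (all but *Tecta*), of *Epyc* and *Tectb* in PIO+GM, and of 0 of 6 in GM.

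Libraries of 6 and 24 h overlapped for every member in CTRL and GM, where the groups of 46.4% and 44.9% of all genes did not overlap. The ranges did not overlap for *Tecta* in PIO (1271 to 1814 CPM at 6 h and 1903 to 2506 CPM at 24 h), where 41.3% of all genes did not overlap, or for *Otog* in PIO+GM (305 to 338 CPM and 362 to 522 CPM), where 43.1% did not.

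*Otoa* had 340, 205 and 607 CPM in CTRL at 6 h and 507, 342 and 473 CPM at 24 h, and *Otogl* had 321, 201 and 524 CPM and 534, 409 and 552 CPM. The control groups overlapped for both genes. Over the 8 libraries of 24 h numbered 1 and 3, *Otoa* lay between 408 and 507 CPM and *Otogl* between 419 and 605 CPM, and in the 4 libraries numbered 2 they lay between 191 and 342 CPM and between 198 and 409 CPM.

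Of the other genes of the matrix, the 8 collagens passed in 0 of 144 tests over 18 comparisons by edgeR and in 0 by DESeq2, and 12 of the 144 (8.33%) had an unadjusted p under 0.05, beside 15.0% of the tests of all genes in these comparisons. Their log2 fold changes ran from −0.75 to 0.82. In PIO+GM against GM the collagen estimates were below 0 for 8 of 8 genes at both times, with medians of −0.43 at 6 h and −0.43 at 24 h beside −0.02 and 0.00 over all genes. In the same comparison at 24 h, estimates were below 0 for 8 of 10 cartilage and bone markers (median −1.24), 8 of 10 mesenchyme and fibrocyte markers (median −0.59) and 9 of 9 small leucine-rich proteoglycans (median −0.77). At 6 h they were below 0 for 6 of 10 (median −0.17), 5 of 10 (median −0.12) and 4 of 9 (median 0.14) of these. The part of those cell types in the collagen values was not tested. The 4 genes listed as other inner ear matrix, *Strc*, *Emilin2*, *Oc90* and *Otol1*, passed in 0 comparisons. At 24 h *Strc* had 36.6 to 65.1 CPM in CTRL, 19.5 to 30.6 in GM, 19.4 to 47.2 in PIO and 11.7 to 23.2 in PIO+GM. GM and PIO+GM thus did not overlap CTRL, as held for 5.66% and 21% of all genes. Hair cell markers had estimates below 0 for 11 of 15 and 14 of 15 genes in these comparisons, and their part was not tested.

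Among the small leucine-rich proteoglycans, the family of *Epyc*, 9 of 10 genes were tested and the calls were with time. Called genes numbered 1 of 9 in CTRL, 1 in GM, 3 in PIO and 4 in PIO+GM, beside 28%, 24.2%, 29% and 34.6% of all genes. *Bgn*, encoding biglycan, rose between 6 and 24 h in CTRL (log2 fold change 1.18 ± 0.32, adjusted p = 0.010 by edgeR) and in the other 3 treatments (1.19 to 1.61). *Dcn*, encoding decorin, fell by 1.00 ± 0.29 on the log2 scale in PIO and by 0.90 ± 0.29 in PIO+GM, and had 0.06 ± 0.28 in CTRL and 0.23 ± 0.29 in GM. In the test of the difference of the pioglitazone effect between 24 h and 6 h, 0% of all genes passed by edgeR. A difference between PIO and CTRL in these time changes was therefore not shown. *Ogn*, encoding osteoglycin, was called lower in PIO, and in PIO+GM *Omd*, encoding osteomodulin, was called lower and *Prelp* higher. Of the relatives of the mucin-like, zona pellucida and adhesion members, 11 of 14 were tested and 1, 2, 3 and 3 were called with time in CTRL, GM, PIO and PIO+GM, also beside those shares. *Sspo*, a giant secreted glycoprotein, rose with time in all 4 treatments (0.97 to 1.93). The mucins *Muc5ac* and *Muc5b* were called lower at 24 h in PIO and PIO+GM, and *Zan*, encoding zonadhesin, higher in GM.

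Thyroid hormone is known to control the formation of the tectorial membrane, and genes of its receptors and deiodinases were tested. Their calls with time stand beside 28%, 24.2%, 29% and 34.6% of all genes in CTRL, GM, PIO and PIO+GM by edgeR. *Thra*, a hormone receptor, rose between 6 and 24 h in CTRL (log2 fold change 0.66 ± 0.18, adjusted p = 0.011 by edgeR) and in the other 3 treatments (0.76 to 1.27), and *Thrb*, the other receptor, in GM, PIO and PIO+GM (0.57 to 0.84), with 0.37 ± 0.19 in CTRL. *Dio3*, the enzyme that inactivates the hormone, fell by 3.32 ± 0.93 on the log2 scale in CTRL, by 4.18 ± 1.04 in GM and by 3.41 ± 1.00 in PIO, and had −2.26 ± 0.96 in PIO+GM, which did not pass. *Dio2*, the activating enzyme, passed in 0 of the 4. Between treatments, *Thra* fell by 0.74 ± 0.18 on the log2 scale in PIO+GM against CTRL at 6 h (adjusted p = 0.0399 by edgeR), where 2.64% of all genes passed.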

How the data were processed

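RNA was measured in 24 libraries of organ of Corti explants, 3 in each of 8 groups taken from the sample labels. Alignment by the authors used RNA-STAR. Their deposited counts, from QuasR, give for each gene how many reads begin in one of its RefSeq exons, with no normalization. Per the labels' processing notes, the build was mm10. The same deposited file holds 1 other column, the gene length in base pairs. Strand use and the treatment of multiply mapped reads are not given in the sources used here. The methods describe triplicate treatments of explants kept in separate wells. The litter and day behind each library are not given in the sources used here, and p-values measure the spread between these libraries.

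Of 24454 identifiers, 24381 matched a symbol and 73 did not. edgeR 4.0.16 in R 4.3.3 (TMM, filterByExpr, quasi-likelihood F-test, 1 model with a mean for each group over 24 libraries) tested 16317 genes, with Benjamini-Hochberg adjustment over all of them and a threshold of 0.05. SE and 95% intervals were derived from the F statistic. Alternatives were DESeq2 1.42.0, the likelihood ratio test, other scalings and filters, subsets of libraries, a replicate block, removal of the GC trend, and leaving out each library in turn. log2 CPM used a prior count of 2. Counting error alone limits values near 3 counts. The fit was tested on simulated data. Members, marker lists and matrix lists were chosen with earlier results of these data known. Named genes are the members, listed genes with an adjusted p under 0.05 or that a count turns on, and the nearest genes by correlation. Promoter windows and positions are RefSeq entries of GRCm38.p6, and no promoter window was listed for *Otogl* and *Ceacam16*. The result of 1 listed gene is not reported here.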

Additional observations from a re-analysis of the deposited data

How the results depend on the processing

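The count of members called was 0 in every comparison that could be run under each of 12 other settings and with each of 24 libraries left out (settings on subsets of libraries gave only the comparisons those libraries serve), and over these 2010 tests the lowest adjusted p was 0.0521 (*Otog*, 24 h against 6 h in PIO+GM, from the 6 libraries of that comparison, 0.51 ± 0.16; up to 0.884 in the other settings of this test). Of 43 fold changes followed, 34 took the opposite sign in some setting, 15 of them in a setting other than leaving out 1 library. All values are log2 fold changes, and the cause was not tested. *Tecta* at 24 h against 6 h in CTRL was −0.011 with DESeq2, with RLE size factors and with the GC trend removed. With the GC trend removed, PIO+GM against GM at 6 h was −0.048 for *Epyc*, 0.12 for *Otoa*, 0.18 for *Otog* and −0.081 for *Otogl*, and PIO against CTRL at 6 h was 0.087 for *Otog* and −0.17 for *Otogl*. Without the 4 libraries numbered 2 at 24 h (added after the data were seen), the 24 h values were 0.014 (*Otog*, PIO against CTRL), 0.33 (*Tecta*, PIO against CTRL), 0.0064 (*Otogl*, GM against CTRL), 0.022 (*Tectb*, GM against CTRL), 0.0080 (*Otogl*, PIO+GM against GM) and 0.19 (*Tecta*, PIO+GM against GM), and *Tecta* at 24 h against 6 h in CTRL was −0.31. That setting took out 24 h libraries only and kept the 6 h libraries with the highest stria vascularis sums, so its values of 24 h against 6 h compare unlike sets.

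With the replicate number as a block, 0 members were called in each comparison, and PIO+GM against GM at 24 h was 0.00041 for *Tecta* and −0.013 for *Tectb*. Block and GC removal together gave 0.0049 and −0.017 for these, PIO+GM against GM at 6 h of −0.038 (*Epyc*), 0.11 (*Otoa*), 0.21 (*Otog*) and −0.076 (*Otogl*), and PIO against CTRL at 6 h of −0.022 (*Epyc*), 0.10 (*Otog*) and −0.16 (*Otogl*). Over all genes, the block took the calls from 216 to 1990 in PIO+GM against GM at 6 h, from 55 to 371 in PIO against CTRL at 6 h and from 25 to 241 at 24 h. Deviations of same-numbered libraries had mean correlations of 0.11 at 6 h and 0.38 at 24 h, 9 and 15 of 18 pairs were over 0.1, and 8 and 11 of 12 libraries correlated best with their own number. The labels do not say what the numbers stand for, and the rule set for pairing (every pair over 0.1) was not met at either time. At 24 h the mean correlation of other pairs was −0.18. *Epyc* was lower with pioglitazone in 6 of 6 same-numbered comparisons at 24 h and in 2 of 6 at 6 h. The share of all genes with such counts was not obtained, so no conclusion is drawn from them. PIO against CTRL at 24 h was −0.84 ± 0.31 for *Epyc* with the block (adjusted p = 0.205 by edgeR), where 1.48% of all genes passed. With block and GC removal together the adjusted p by edgeR was 0.0562, the lowest of 18 alternatives.

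Leaving out 1 library gave these ranges at 6 h for GM against CTRL, −0.91 to 0.33 for *Tecta*, −0.40 to 0.11 for *Tectb*, −0.47 to 0.33 for *Otoa*, −0.62 to 0.17 for *Otog*, −0.51 to 0.19 for *Otogl* and −0.14 to 0.13 for *Epyc*. At 24 h the ranges for GM against CTRL were −0.49 to 0.089 for *Tecta*, −0.39 to 0.33 for *Tectb*, −0.29 to 0.076 for *Otoa*, −0.30 to 0.12 for *Otogl* and −0.47 to 0.29 for *Epyc*. For PIO against CTRL at 6 h they were −1.01 to 0.23 for *Tecta*, −0.50 to 0.30 for *Otoa*, −0.49 to 0.32 for *Otog*, −0.22 to 0.48 for *Otogl* and −0.12 to 0.76 for *Epyc*, and at 24 h −0.35 to 0.23 for *Tecta*, −0.60 to 0.25 for *Tectb*, −0.52 to 0.051 for *Otoa* and −0.15 to 0.030 for *Otog*. PIO+GM against GM gave −0.35 to 0.17 for *Tecta* and −0.29 to 0.051 for *Otoa* at 6 h. At 24 h it gave −0.29 to 0.14 for *Tecta*, −0.36 to 0.47 for *Tectb*, −0.33 to 0.19 for *Otoa*, −0.056 to 0.19 for *Otog*, −0.28 to 0.22 for *Otogl* and −0.73 to 0.039 for *Epyc*. For 24 h against 6 h in CTRL the ranges were −0.35 to 0.88 for *Tecta*, −0.10 to 0.69 for *Otoa* and −0.18 to 0.60 for *Otog*. Depth limits only *Ceacam16*, with 0 to 7 counts a library.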
